A study of Mus musculus with 6 samples.

Results

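Hox genes encode transcription factors whose order on the chromosome follows the head-to-tail order in which they are used in the embryo. Genes with low numbers are active from the hindbrain back, genes with middle numbers in the neck and trunk, and genes with high numbers at lumbar, sacral and tail levels, and many cell types keep their Hox code after development. Genes of the same number in different clusters descend from one ancestor and form a paralog group, so the set of Hox transcripts in a tissue is commonly read as a record of axial position. The Hox genes of the count table were taken as all rows whose symbol is Hox, a cluster letter from a to d and a number, which leaves out antisense and other non-coding transcripts of the clusters. This gave 40 of 54532 rows and 39 gene symbols, because Hoxd4 stands under 2 identifiers.

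RNA came from the sciatic nerves of 3 control mice, labelled WT, and 3 mice labelled as Dok6 mutant, all at postnatal day 3, with one library per mouse. In the study, the mutation is a deletion of Dok6 exon 3 made with EIIa-Cre, which is active in the early embryo and so acts in every tissue. The controls are called littermates, but the labels do not say which mice shared a litter. DOK6 is an adaptor protein of neurotrophin receptor signalling, and the comparison of genotypes asks which transcripts differ in its absence.

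The 6 libraries held 17699904 to 18678170 counts, and 3 counts, taken here as the smallest detectable level, equalled 0.155 to 0.172 counts per M (CPM). The targeted gene, Dok6, was at 17.8, 11.9 and 17.5 CPM in controls 1, 2 and 3 and at 7.25, 5.77 and 7.14 CPM in mutants 1, 2 and 3, a log2 fold change of -1.23 (SE 0.20, edgeR adjusted p = 0.0118). Counts cover the whole gene, exons outside the deletion included, and they were lower in every mutant than in any control. The labelled tissue was checked against marker lists of the cells it could hold. Central neuron markers (such as Gad1, Slc6a5 and Lbx1) summed to 1310 to 1490 CPM in controls and 1070 to 1230 CPM in mutants. Schwann cell markers (such as Prx) summed to only 142 to 216 CPM in controls and to 472, 4040 and 449 CPM in mutants 1, 2 and 3. Sensory neuron markers of the dorsal root ganglion (DRG) summed to 393 to 436 CPM in controls and to 512, 1040 and 984 CPM in mutants 1, 2 and 3. Astrocyte markers summed to 1710 to 2240 CPM in controls and 1410 to 2790 CPM in mutants, and oligodendrocyte markers to 235 to 415 and 261 to 488 CPM. Fibroblast markers summed to 299 to 1130 CPM in controls and 1930 to 3060 CPM in mutants, and skeletal muscle markers to 20.7 to 32.3 and 122 to 640 CPM. In the controls, markers of central neurons and astrocytes thus stood far above those of Schwann cells, the main cell of a peripheral nerve. They were also above them in mutants 1 and 3, and only in mutant 2 were Schwann cell markers the higher. The order in the controls and in mutants 1 and 3 goes against the tissue label. Every axial value below is that of the libraries as labelled. In whole tissue, fewer cells of a type and less RNA per cell cannot be told apart.

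The homeobox is the 180-base stretch that encodes the DNA-binding homeodomain. It is shown for Hoxc4, which passed the test between genotypes with no exon shared with another gene, for the most abundant Hox gene (Hoxb8) and for the gene with the widest spread between mice among those with at least 3 counts in every library (Hoxc13). Capitals mark 30 bases within the stretch that encodes the recognition helix, which enters the major groove of DNA. Sequences are the coding strand from GENCODE M21 transcripts, on GRCm38 (mm10), and all lie on the plus strand in the last exon of their gene.
Hoxc4, chr15:103035663-103035842: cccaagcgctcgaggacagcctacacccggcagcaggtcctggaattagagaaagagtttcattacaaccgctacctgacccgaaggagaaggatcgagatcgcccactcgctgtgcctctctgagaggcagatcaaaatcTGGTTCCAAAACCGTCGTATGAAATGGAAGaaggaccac
Hoxb8, chr11:96284174-96284353: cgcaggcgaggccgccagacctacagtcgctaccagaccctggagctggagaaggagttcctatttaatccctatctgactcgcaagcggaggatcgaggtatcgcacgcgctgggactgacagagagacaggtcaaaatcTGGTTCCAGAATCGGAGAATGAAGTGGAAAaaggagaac
Hoxc13, chr15:102927210-102927389: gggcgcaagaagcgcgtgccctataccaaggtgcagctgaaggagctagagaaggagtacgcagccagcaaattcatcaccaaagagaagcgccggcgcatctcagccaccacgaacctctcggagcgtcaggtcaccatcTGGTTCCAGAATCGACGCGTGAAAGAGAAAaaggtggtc

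The marked bases of the helix are largely shared. Against Hoxb8, the 30 capitals differed at 7 bases in each of Hoxc4 and Hoxc13. These are counts of bases, in which silent differences weigh the same as those that change the protein. Equal counts therefore do not mean equal change in the encoded helix. Over the whole homeobox, the closest relative of 33 of the 39 genes, ties included, was a member of the same paralog group. For Hoxc4 it was Hoxb4, at 82.2% identity, and for Hoxc13 it was Hoxa13, at 77.2%. Hoxb8 was equally close to Hoxb6, Hoxb7 and Hoxd8, at 80.6%. The median identity was 80.3% within a group and 62.9% between groups. Exons of 16 of the 39 annotated genes overlap another gene, on the same strand in 9 cases and on the opposite strand in 10. Hoxd3 shares 388 bases with the annotated Hoxd4 and 2225 bases with the transcript Gm28230, and Hoxc5 shares 166 bases with Hoxc10, so their counts are uncertain. Exons of Hoxd1, Hoxc4, Hoxb8, Hoxb13, Hoxc12 and Hoxc13 overlap no other gene.

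Hox transcripts were present in every library, and their level was centred on the lower trunk and lumbar numbers. Of the 40 rows, 33 had at least 3 counts in all 6 libraries and none was without a count. Together they took 0.153% to 0.2% of the counts and 2250 to 2994 transcripts per M (TPM, counts divided by gene length and scaled to a fixed sum). Paralog group 8 held 28.9% of Hox TPM on average, group 9 held 23.0% and group 10 held 15.4%. Groups 7 and 6 followed with 9.17% and 7.41%, whereas group 1 held only 0.21%.

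Hoxb8 was the most abundant Hox gene. It works in spinal sensory circuits and blood cell precursors, and its level was 643, 792 and 732 TPM in controls 1, 2 and 3 and 644, 610 and 659 TPM in mutants 1, 2 and 3. The genotypes overlapped on this scale. Hoxb9, a trunk-level gene next to it on the chromosome, was second with 337 to 454 TPM over the 6 mice. The ranges of Hoxb8 and Hoxb9 did not overlap, and Hoxb9 was in turn above the range of every remaining gene.

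The next genes in the order were much closer together. Hoxd10, which with Hoxc10 and Hoxa10 sets lumbar identity, had 98.3 to 225 TPM. Hoxb7 had 140 to 167 TPM, Hoxc10 had 93.9 to 182 TPM and Hoxb6 had 113 to 149 TPM. Hoxc12 (28.6 to 167 TPM), Hoxd9 (64.6 to 146 TPM) and Hoxa10 (78.1 to 128 TPM) completed this set. Their ranges overlapped from each to the next, so the order among these genes is not resolved beyond the spread between mice.

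The low end of the order held both extremes of the axis. Hoxb1, a gene of the hindbrain, had 2 counts in each control and 4, 10 and 7 counts in mutants 1, 2 and 3. Hoxd12 had 2 to 6 counts per library, and the annotated Hoxd4 identifier (ENSMUSG00000101174) had 0 to 6. These 3 rows did not pass the filter on low counts and were not tested. Hoxb2, the lowest-numbered Hoxb gene with at least 3 counts in every library, had 4.41 to 5.67 TPM.

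**Figure D1:**
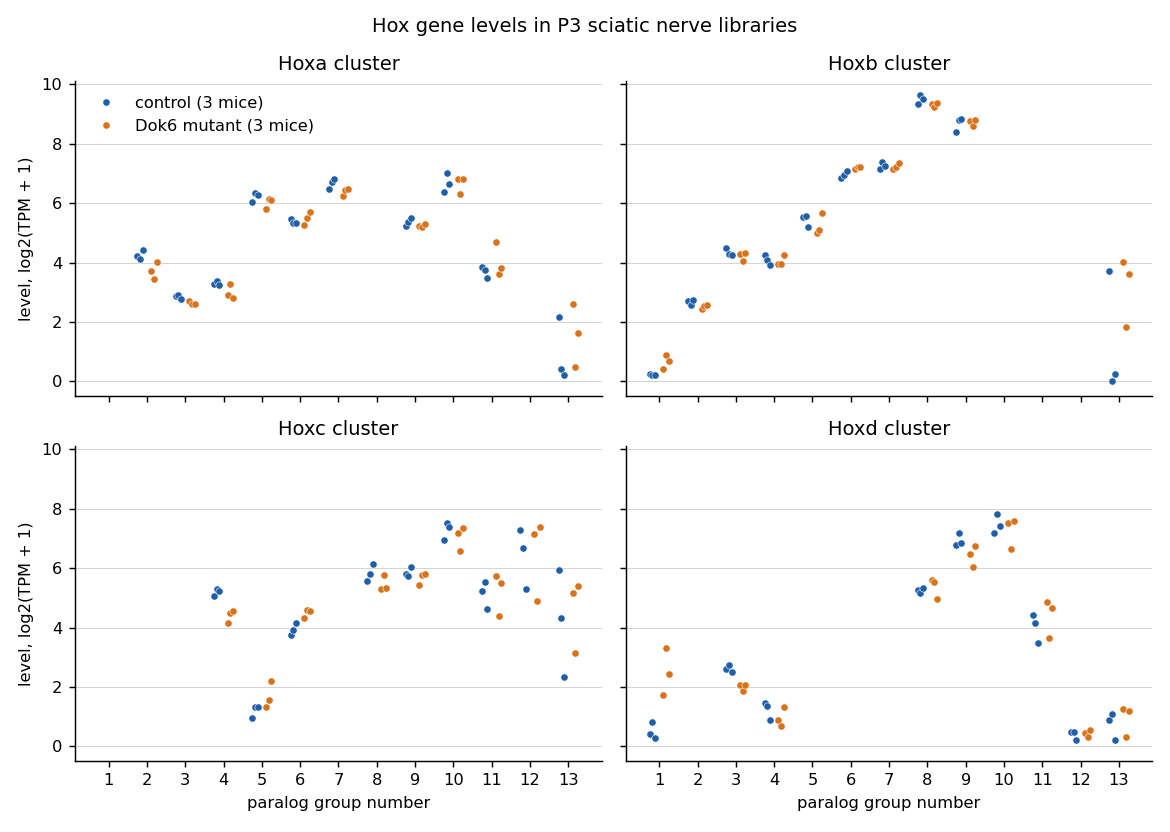
Level of each Hox gene in each mouse, as log2(TPM + 1), against its paralog group number, with one panel per cluster and one point per mouse (control blue, Dok6 mutant orange). Mean levels peak at group 8 in the Hoxb cluster and at group 10 in the Hoxd cluster, Hoxa7 and Hoxa10 are close to each other, and Hoxc11 lies below both Hoxc10 and Hoxc12 in mean level. The annotated Hoxd4 identifier with at most 6 counts and 1 gene that is not reported here are not drawn.

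The clusters contributed unequally. The Hoxb cluster, on chromosome 11, gave 52.5% to 60.6% of Hox TPM, most of it from Hoxb8 and Hoxb9. The Hoxc cluster on chromosome 15 gave 13.5% to 20.5%, the Hoxa cluster on chromosome 6 gave 14.02% to 15.59% and the Hoxd cluster on chromosome 2 gave 10.3% to 14.4%. Each of these shares overlapped between genotypes. Position along the axis also differed between clusters: the mean paralog number of Hox transcripts was 7.18 to 7.72 in Hoxa, 7.76 to 7.87 in Hoxb, 8.93 to 9.43 in Hoxd and 9.04 to 10.27 in Hoxc.

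To ask whether the nerves differed in axial level, the paralog number was averaged over all Hox genes in each library with TPM as the weight. This axial index was 8.39, 8.31 and 8.12 in controls 1, 2 and 3 and 8.50, 7.97 and 8.43 in mutants 1, 2 and 3. Mutant 2 had the lowest and mutant 1 the highest value, and the controls lay between them. The means were 8.27 ± 0.14 (SD, n = 3) in controls and 8.30 ± 0.29 (SD, n = 3) in mutants, a difference of 0.03 paralog numbers, which is smaller than the spread within either genotype. The overlap rests on mutant 2: without it, both other mutants were above every control, and the difference was 0.191, with SDs of 0.14 in controls and 0.05 in mutants. Within each cluster the index of the genotypes also overlapped. Being a score over chosen members, the index was given no p-value, and an exact permutation test of 3 mice against 3 cannot go below p = 0.1.

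The shares behind the index were compared band by band. Groups 1 to 4 held 4.69%, 4.04% and 4.30% of Hox TPM in controls and 3.33%, 4.24% and 3.65% in mutants. Groups 5 to 8 held 48.62%, 48.66% and 51.59% in controls and 46.37%, 56.14% and 46.53% in mutants. Groups 9 to 10 held 34.81%, 40.70% and 40.90% in controls and 38.97%, 35.94% and 39.08% in mutants. With all mice these shares overlapped between genotypes. Without mutant 2, groups 5 to 8 were lower in mutants by 3.17 percentage points and groups 9 to 13 higher by 4.03 percentage points, neither with overlap. Groups 1 to 4 were lower without overlap when mutant 2 or control 2 was left out, and groups 9 to 10 when control 1 was. The most caudal part, groups 11 to 13, held 11.88%, 6.60% and 3.21% in controls and 11.33%, 3.68% and 10.74% in mutants.

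**Figure D2:**
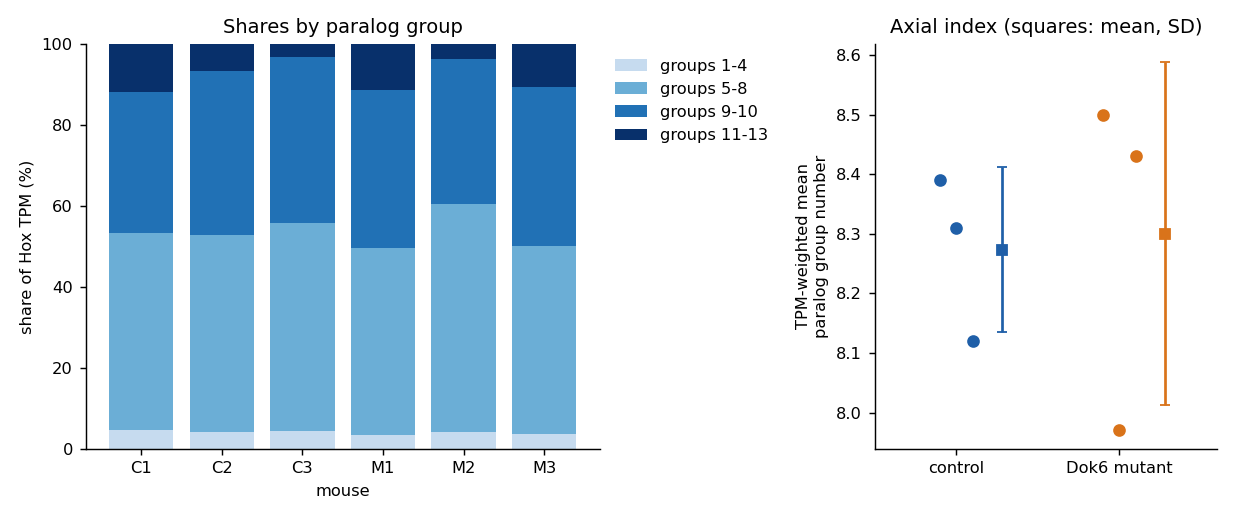
Left, share of Hox TPM (%) by paralog group band in each mouse (C control, M Dok6 mutant). Right, axial index of each mouse as circles with the mean and SD of each genotype as squares and bars; the axis does not start at 0, and the 3 mutants span 7.97 to 8.50, a range that holds all 3 controls.

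Gene by gene, few Hox transcripts differed between genotypes. With edgeR's quasi-likelihood test and adjustment over all 17099 genes tested, 3 of the 37 Hox rows that passed the filter (8.11%) had an adjusted p under 0.05, against 14.6% of all genes tested. One was higher in mutants (2.7%, against 8.62% of all genes) and 2 were lower (5.41%, against 6.01%). One passed with an absolute log2 fold change above 2 (2.7%, against 1.19%). By adjusted p the Hox share was below that of all genes, except for the single gene past the fold threshold. At an unadjusted p under 0.05, 2 Hox rows were higher (5.41%, against 18% of all genes) and 8 were lower (21.6%, against 15.5%). The log2 fold change was below 0 for 23 of the 37, with a median of -0.13 beside 0.01 for all genes.

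Hoxd1, a group 1 gene that in the mouse is used by nociceptive sensory neurons, was the one that rose. It had 3, 7 and 2 counts in controls 1, 2 and 3 and 22, 85 and 41 counts in mutants 1, 2 and 3, or 0.172, 0.401 and 0.114 CPM against 1.14, 4.63 and 2.17 CPM. Every mutant was above every control, and mutant 2 was the highest. The log2 fold change was 3.49 (SE 0.66, edgeR adjusted p = 0.0171). The level was close to the detection floor in controls, and the call was lost without control 1 (adjusted p = 0.0506) or without control 2 (adjusted p = 0.07).

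Markers of several cell types were also higher in mutants, among them those of DRG neurons. Of the 14 of these markers tested, 9 were higher in mutants (8.62% of all genes were) and none was lower, and the 2 mutants with the most Hoxd1 had the highest sums of the list. Among them, Scn10a, a sodium channel of nociceptors, was at 3.09, 2.92 and 1.20 CPM in controls and at 45.9, 167 and 133 CPM in mutants. Scn10a was chosen as an example after its values were seen. None of the list was without counts in every control, and its part in the Hoxd1 difference was not tested. Other lists were higher in mutants too, with 8 of 10 skeletal muscle genes, 7 of 10 Schwann cell genes and 5 of 8 fibroblast genes called. Their order among mutants could differ from that of Hoxd1, the muscle sum being 640, 346 and 122 CPM in mutants 1, 2 and 3. The part of these lists was not tested either.

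Hoxc4, a gene of the neck and forelimb levels, fell in mutants. It was at 22.9, 28.2 and 27.3 CPM in controls 1, 2 and 3 and at 11.6, 15.3 and 15.4 CPM in mutants 1, 2 and 3. The highest mutant lay well below the lowest control. The log2 fold change was -0.89 (SE 0.15, edgeR adjusted p = 0.0133), and without control 2 the adjusted p was 0.0765.

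Hoxd3, which acts in the upper neck, also fell. It was at 5.90, 6.81 and 5.71 CPM in controls and at 3.57, 3.10 and 3.49 CPM in mutants, without overlap. The log2 fold change was -0.86 (SE 0.18, edgeR adjusted p = 0.0230). Without control 2, mutant 1 or mutant 2 the adjusted p was 0.105, 0.0579 or 0.0771. The Hoxd4 row that shares exon sequence with Hoxd3 was the one with 0 to 6 counts. The other Hoxd4 row (ENSMUSG00000115956), which has no position in GENCODE M21, was at 0.628 to 1.26 CPM in controls and 0.436 to 1.01 CPM in mutants.

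**Figure D3:**
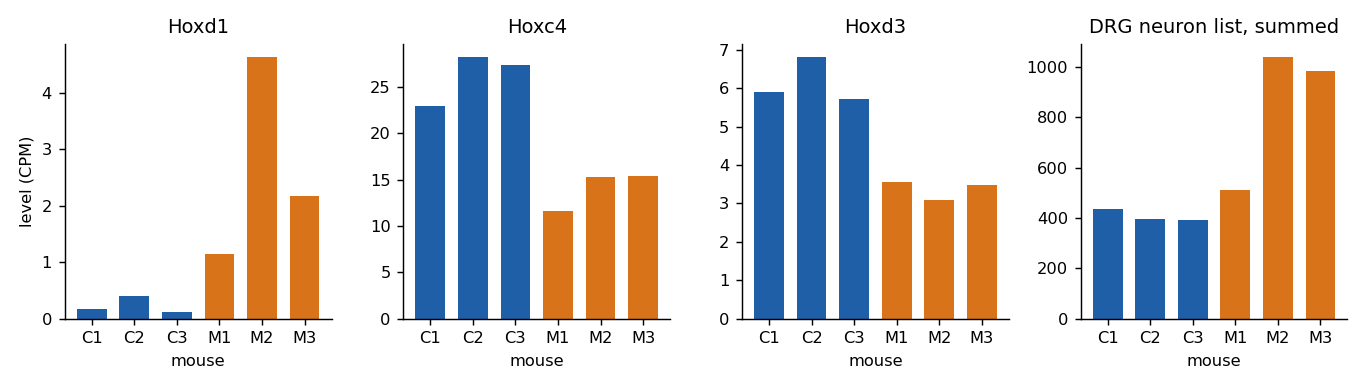
CPM in each mouse (C control, M Dok6 mutant; bars are single libraries) of the 3 Hox genes with an adjusted p under 0.05, and the summed CPM of the DRG neuron marker list. All 3 mutants are above the controls for Hoxd1 and the marker sum and below them for Hoxc4 and Hoxd3.

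The genes called were all of groups 1 to 4, the anterior end of the code. Of the 11 genes of groups 1 to 4 tested, 6 were lower in every mutant than in any control and 1 was higher, with a median log2 fold change of -0.34. Such non-overlap was found in 13 of the 37 Hox rows (35.1%) and in 38.2% of all genes, and non-overlap with the mutants lower in 11 Hox rows (29.7%) and in 18.7% of all genes. The summed level of group 2 was 23.3, 21.4 and 26.2 TPM in controls and 16.6, 14.7 and 20.4 TPM in mutants. The sums of groups 3 and 4 were also lower in every mutant, with group 4 at 60.0 to 65.8 TPM in controls and 39.0 to 48.9 TPM in mutants. Groups 1 and 6 were higher in every mutant, group 1 at 2.29 to 3.07 TPM in controls and 5.67 to 11.4 TPM in mutants and group 6 at 169, 178 and 193 TPM in controls and 199, 216 and 220 TPM in mutants. These group sums were not tested, and those of groups 1, 3 and 4 hold the genes called. Hoxd1, in group 1, was at 0.21 to 0.756 TPM in controls and 2.3 to 9.02 TPM in mutants. Hoxc4, in group 4, was at 32.2 to 38.5 TPM in controls and 17.0 to 22.8 TPM in mutants. The sums of groups 1 and 4 are thus largely a restatement of these genes. Central neuron markers were also lower in mutants, 2 of 12 passing the test (6.01% of all genes did) and the summed level lying below that of every control, and their part in the anterior Hox values was not tested.

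Some further genes came near the threshold, and are named here after their values were seen. Hoxa2, a hindbrain gene, was at 8.36 to 10.6 CPM in controls and 4.79 to 7.20 CPM in mutants, with a log2 fold change of -0.64 (SE 0.20, edgeR adjusted p = 0.0605). Hoxd9 was at 64.7 to 88.7 CPM in controls and 38.0 to 60.1 CPM in mutants, with a log2 fold change of -0.60 (SE 0.18, edgeR adjusted p = 0.053). Hoxc6, a forelimb-level gene, was at 8.37, 9.79 and 11.9 CPM in controls and 12.1, 15.4 and 14.3 CPM in mutants, the only Hox gene beside Hoxd1 among those tested to be higher without overlap, with a log2 fold change of 0.47 (SE 0.17, edgeR adjusted p = 0.0959).

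Genes of the trunk and lumbar levels make up most of the Hox transcripts. The median log2 fold change was -0.11 for groups 5 to 8, with 2 of 11 genes lower in every mutant than in any control (18.7% of all genes were) and 1 higher. It was -0.29 for groups 9 to 10, with 7 of 7 below 0 (8316 of all 17099 genes were) and 3 lower without overlap. Hoxb8 was at 469, 594 and 562 CPM in controls and 451, 443 and 457 CPM in mutants, with a log2 fold change of -0.27 (SE 0.10, edgeR adjusted p = 0.108). The mutants were tightly grouped and all below the controls, and without control 1 the adjusted p was 0.0438. Hoxb9 had a log2 fold change of -0.06 (SE 0.13, edgeR adjusted p = 0.782). Among the lumbar genes, the log2 fold changes were -0.13 (SE 0.18) for Hoxa10, -0.33 (SE 0.21) for Hoxc10 and -0.29 (SE 0.24) for Hoxd10, and none passed the test. Of the 11 genes of groups 5 to 8 edgeR called 0, with 4 at an unadjusted p under 0.05, 1 called by DESeq2 (Hoxa7) and 0 by limma voom. Of the 7 genes of groups 9 to 10 it called 0, with 1 at an unadjusted p under 0.05, 1 called by DESeq2 (Hoxd9) and 0 by limma voom.

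**Figure D4:**
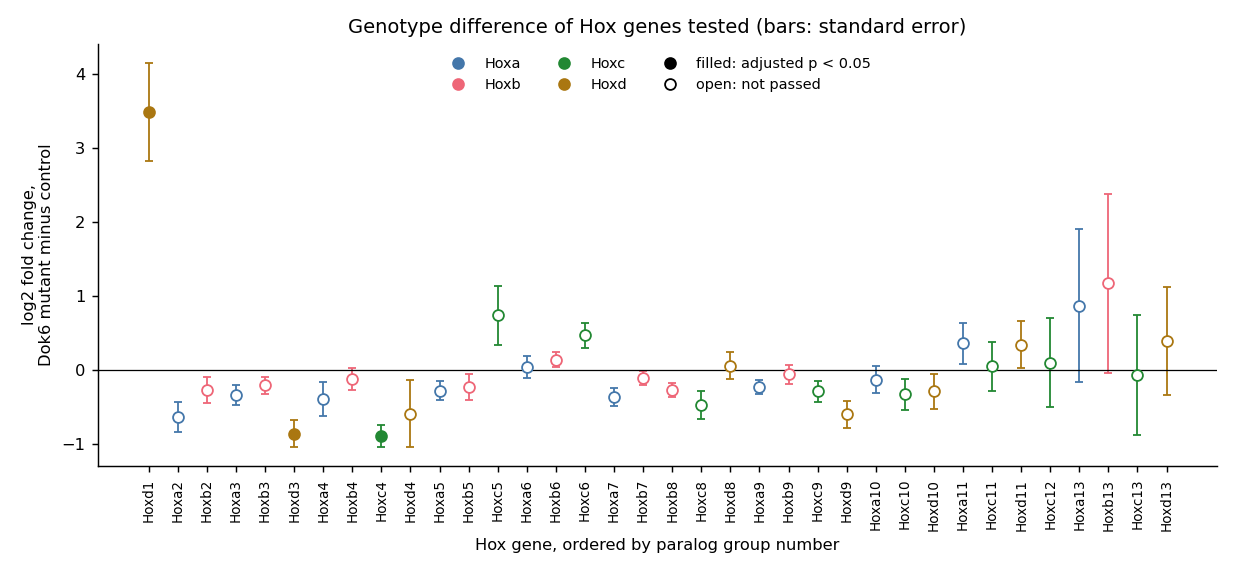
Log2 fold change (Dok6 mutant minus control) of the Hox rows tested that are reported here, ordered by paralog group and coloured by cluster, with bars of 1 standard error. Filled symbols passed an adjusted p of 0.05 (Hoxd1, Hoxd3 and Hoxc4), and the widest bars belong to group 13 genes.

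The microRNA genes inside the clusters bear on Hoxb8, a classic target of miR-196. Mature sequences are from RefSeq (GRCm38.p6) with the seed, bases 2 to 8, in capitals, and are shown beside the best match in the 3′ untranslated region of Hoxb8, in exon 2 of 2 and read 5′ to 3′ from GENCODE M21. In that site, capitals mark Watson-Crick pairs with miR-196a and lower case a G-U wobble.
miR-196a-5p, from Mir196a-1 at chr11:96265187-96265208, plus strand: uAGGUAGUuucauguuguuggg
miR-196b-5p, from Mir196b at chr6:52230129-52230150, minus strand: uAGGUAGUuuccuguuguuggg
miR-10b-5p, from Mir10b at chr2:74726074-74726096, plus strand: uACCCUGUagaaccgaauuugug
Hoxb8 site, chr11:96284888-96284909, plus strand: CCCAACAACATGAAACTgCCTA

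The 2 members of the miR-196 family share the seed AGGUAGU, which miR-10b does not have. All 22 bases of the Hoxb8 site pair with miR-196a, 21 of them as Watson-Crick pairs and 1 as a wobble, which lies within the seed. No stretch searched in another Hox transcript left fewer than 3 bases unpaired, wobbles counted as pairs. The search scored pairing over all 22 bases, not a match to the seed, so it does not tell which other Hox genes are targets. Reads on the Mir196a-1 locus, which come from longer transcripts and do not measure the mature microRNA, were at 1.66, 1.20 and 1.09 CPM in controls and 2.23, 2.40 and 3.49 CPM in mutants. The log2 fold change was 1.04 (SE 0.31), which missed the threshold (edgeR adjusted p = 0.055), although every mutant was above every control. Of the other non-coding transcripts, Hotair, made in the Hoxc cluster, was at 3.32 to 4.53 CPM in controls and 2.45 to 6.99 CPM in mutants, and Mir196b had no counts. Of the 13 of these transcripts and neighbouring Evx genes tested, edgeR, DESeq2 and limma voom called 0, with 3 at an unadjusted edgeR p under 0.05.

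The most caudal genes, groups 11 to 13, spread widely between mice of either genotype. Of the 8 tested, edgeR, DESeq2 and limma voom each called 0 between genotypes, and 0 had an unadjusted p under 0.05 in edgeR. Hoxc13, used at the tail end and in hair follicles, was at 41.1, 13.5 and 2.91 CPM in controls 1, 2 and 3 and at 22.6, 5.34 and 26.6 CPM in mutants 1, 2 and 3. The highest and the lowest mouse, 14.1-fold apart, were both controls. Its log2 fold change was -0.07 (SE 0.81, edgeR adjusted p = 0.960).

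Hoxc12, a neighbour of Hoxc13, was at 44.1, 29.8 and 11.7 CPM in controls and at 38.3, 8.11 and 45.2 CPM in mutants, a log2 fold change of 0.10 (SE 0.60, edgeR adjusted p = 0.925). Hoxb13, a gene of the tail bud, had 131, 0 and 2 counts in controls and 174, 29 and 123 counts in mutants. Hoxa13, which patterns the distal limb and the genital tubercle, had 42, 4 and 2 counts in controls and 65, 5 and 26 in mutants. For each of these 3 genes control 1, mutant 1 and mutant 3 were above the other mice.

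That order was shared. In all 9 genes of groups 11 to 13, control 1, mutant 1 and mutant 3 were each above control 3 and mutant 2, an order noticed in these values and given as a description. It was seen in none of the 28 rows of groups 1 to 9 and in 8.01% of all genes tested. Among the genes of groups 11 to 13 with at least 3 counts in every library, the median ratio of the highest to the lowest mouse was 2.51, beside 1.55 for all genes tested. Hoxd11 (23.6, 20.3 and 12.6 CPM in controls, 31.1, 13.4 and 27.2 CPM in mutants) and Hoxc11 (20.5, 26.3 and 13.9 CPM, and 28.1, 11.2 and 23.5 CPM) showed it with a narrower range than Hoxc12 and Hoxc13. Among the 9 cell type lists, 3 of 6 endothelial genes (Pecam1, Cdh5 and Cldn5) and 1 of 6 macrophage genes (Mrc1) had this order and no gene of the other lists did. The endothelial sum was 249, 180 and 150 CPM in controls and 316, 258 and 351 CPM in mutants, and its part in the caudal Hox values was not tested. Hoxb13 had a log2 fold change of 1.17 (SE 1.21, edgeR adjusted p = 0.530) with all mice, and without control 1 it was 6.48 (edgeR adjusted p = 0.0285).

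**Figure D5:**
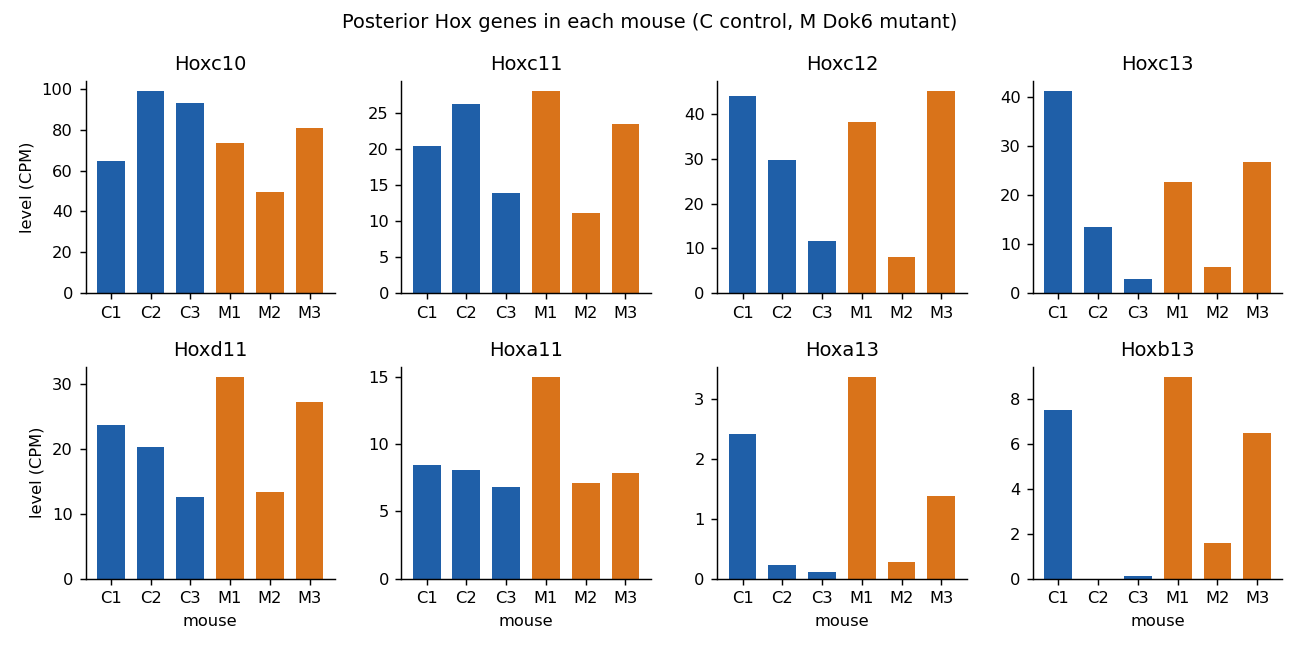
CPM of 8 posterior Hox genes in each mouse (C control blue, M Dok6 mutant orange; bars are single libraries). From Hoxc11 on, C1, M1 and M3 stand above C3 and M2, which holds for both genotypes, while Hoxc10 does not show that order.

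HOX proteins bind DNA together with the PBX, MEIS and PKNOX cofactors. Of the 9 cofactor genes 2 were lower in mutants by edgeR (6.01% of all genes were), 3 by DESeq2 and 2 by limma voom. By each of these tools 0 were higher, also at an unadjusted edgeR p under 0.05. Pbx3, the most abundant of them at a mean of 62.0 TPM, was at 123, 132 and 127 CPM in controls and 75.9, 72.9 and 99.3 CPM in mutants, a log2 fold change of -0.62 (SE 0.12, edgeR adjusted p = 0.0173). Meis2 was at 168, 176 and 172 CPM in controls and 123, 95.1 and 144 CPM in mutants, a log2 fold change of -0.51 (SE 0.14, edgeR adjusted p = 0.0397). The genotypes did not overlap for either. Without control 2, mutant 1 or mutant 2, no gene of the list was called, and without control 1 or control 3 there was 1. The summed level of the list, 747 to 797 CPM in controls and 560 to 690 CPM in mutants, was lower in every mutant, as was that of the central neuron markers given above, whose part in it was not tested.

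Of 23 regulators of Hox genes, 18 were tested, and 4 were higher and 2 lower in mutants (8.62% and 6.01% of all genes). Of the retinoic acid receptors, which switch on anterior Hox genes, Rarg and Rara were higher in mutants. Rarg was at 6.02, 4.98 and 4.51 CPM in controls and 14.3, 13.4 and 9.31 CPM in mutants (log2 fold change 1.25, SE 0.21, edgeR adjusted p = 0.0125). For Rara the log2 fold change was 0.68 (SE 0.15, edgeR adjusted p = 0.0253). Rarb overlapped between genotypes (-0.10, SE 0.22, edgeR adjusted p = 0.788). Gdf11, a signal for the trunk-to-tail switch, rose by 0.53 (SE 0.12, adjusted p = 0.0250) on the log2 scale. Ezh2, the Polycomb methyltransferase, rose by 0.95 (SE 0.25, adjusted p = 0.0387). Rnf2, a Polycomb ubiquitin ligase and the most abundant of the list at a mean of 65.8 TPM, fell (-0.46, SE 0.10, adjusted p = 0.0225), as did Cyp26b1, which degrades retinoic acid (-0.59, SE 0.16, adjusted p = 0.0459). Without control 2 none of the 18 was called, and leaving out control 1, mutant 1 or mutant 2 left 2, 1 and 2 of them higher and 1, 0 and 0 lower, with 1 lower without control 3. Cdx1 and Cdx2, the caudal activators of the embryo, had no counts in any library.

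Genes of limb and head identity were used to place the tissue from the other side. Tbx4 and Pitx1, of the hindlimb, had 6 to 16 and 0 to 19 counts per library, and Tbx5, of the forelimb, had 0 to 1. Of the 14 head and brain identity genes, Otx2, Six3, Six6 and Fezf2 had no counts in any library, whereas Neurod6 was at 26.7, 30.3 and 30.2 CPM in controls and 26.0, 18.8 and 25.6 CPM in mutants, with a log2 fold change of -0.31 (SE 0.14, edgeR adjusted p = 0.168). Of the 1 limb gene and 4 head genes tested, 0 passed the threshold by edgeR, DESeq2 or limma voom, and 0 had an unadjusted edgeR p under 0.05. A count of 0 allows up to 3 counts, and these limits cover counting error only.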

How the data were processed

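Whole-tissue RNA of 6 sciatic nerves was sequenced on an Illumina NovaSeq instrument after NEBNext library preparation. The labels name the Ultra kit and the methods the directional Ultra kit. The authors aligned the reads and deposited raw counts per gene with a gene length. The submitters' processing notes name mm10, and the aligner, the counting tool and the use of strand are not given in the sources used here. Replicates are separate mice by their labels.

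Genotypes were compared on these counts in R 4.3.3 by the quasi-likelihood test of edgeR 4.0.16 (filterByExpr, TMM scaling, no block). The filter kept 17099 of 54532 genes, 23567 of the 54532 having no count, and Benjamini-Hochberg adjustment covered every gene tested, with 0.05 as threshold. The biological coefficient of variation was 16.6%. CPM were scaled by TMM, and TPM used the deposited lengths, which equalled GENCODE M21 exon lengths for 38 of the 39 Hox rows in that annotation. Standard errors were derived from the F statistic. The scripts were tested on simulated data. Homeoboxes were read from M21 transcripts with Biopython 1.88. No library pair was identical (chi-square per degree of freedom 9.59 to 58.7).

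The Hox genes named are those with an adjusted p under 0.05, the most abundant and the lowest- and highest-numbered of each cluster with at least 3 counts in every library, and the Hoxa, Hoxc and Hoxd genes of groups 10 to 13, with further genes named as such. Some genes and sequences are not reported here. Of the other lists the genes that passed, the most abundant of the cofactors, regulators and head genes, and the 3 limb genes are named. Rarb is named beside Rara and Rarg. Members and lists were chosen with earlier results of these data known. Alternatives were DESeq2 1.42.0, limma 3.58.1 voom, edgeR with RLE or upper-quartile factors, no filter on low counts, a filter of at least 10 counts per library, the replicate number as a block, other weights for the axial index, and each mouse left out in turn.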

Additional observations from a re-analysis of the deposited data

How the results depend on the processing

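Hoxd1, Hoxc4 and Hoxd3 kept their direction under every alternative run for them. The single higher Hox gene became 0 with at least 10 counts in every library, because Hoxd1 was then not tested, both with and without the fold threshold of 2. The 2 lower Hox genes became 5 with DESeq2 and 4 with no filter. In voom, the lower regulators numbered 1. The replicate number was not taken as a pairing: same-numbered mice had a mean correlation of deviations of -0.14, and no label ties a number to a litter. With the replicate block, 1 Hox gene and 1 cofactor were lower, 1 regulator was higher and 0 were lower, and Hoxd3 had an adjusted p of 0.0744; over all genes the calls went from 1474 higher and 1028 lower to 432 and 130.

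With each mouse left out in turn, the Hox genes higher ranged from 0 to 1, also past the fold threshold, the Hox genes lower from 0 to 4, the cofactors lower from 0 to 2, the regulators higher from 0 to 3 and the regulators lower from 0 to 2. No Hox gene was called without control 2, when 56 genes were called higher and 12 lower over the whole table. Hox genes lower numbered 4 without control 1 or mutant 3 and 1 without mutant 1 or mutant 2. Among genes not called with all mice, the sign of some depended on single mice, with log2 fold changes from -0.28 to 0.05 for Hoxa10, -0.06 to 0.55 for Hoxa11, -0.15 to 3.24 for Hoxa13, -0.22 to 0.35 for Hoxc11, -0.30 to 0.56 for Hoxc12, -0.58 to 1.15 for Hoxc13 and -0.08 to 0.91 for Hoxd13. Hoxb8, Hoxc10, Hoxd10, Hoxd11 and Hoxb13 kept their sign with every mouse left out. Voom and the replicate block also turned Hoxc12 (-0.03 and -0.04) and Hoxc13 (0.34 and 0.11). The cause of these changes was not tested. With mice left out, the share of Hox TPM in groups 5 to 8 differed by -3.17 to 1.71 percentage points and that in groups 9 to 13 by -1.31 to 4.03. The difference in axial index stayed between -0.073 and 0.191 with mice left out and between -0.003 and 0.074 under the other weights, clusters and lengths. The upper end, without mutant 2, was the one case among these 6 in which the genotypes did not overlap, and the difference with all mice was 0.027. Depth limits what can be said of Hoxd1, Hoxb1, both Hoxd4 rows, Hoxd12, Hoxd13, Hoxa13 and Hoxb13, since single libraries hold few counts of them. Without control 1, Hoxb8 (-0.36, adjusted p = 0.0438) and Hoxb13 gained a call.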
